A study of Mus musculus with 6 samples.

Results

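The 200 peaks described here are the sites that were called both in cells given vehicle and in cells given replication stress. They were selected on measured values, the called positions of both lists, by 1 rule, that a treated peak shares at least 1 bp with a vehicle peak, and they make up 200 of its 491 peaks (40.7%, the share that the rule itself fixed). They met 187 of the 6444 vehicle peaks (2.9%), in 201 pairs. The cells were passage-immortalised mouse embryonic fibroblasts heterozygous for Atr (ATR+/-) that expressed the survival protein Bcl-xL, and both groups shared these changes. The vehicle group had DMSO for 18 h, and the treated group had 1 µM of the ATR inhibitor ATR-45 with 0.2 µM aphidicolin, which slows DNA polymerases, for 18 h. Each group had 2 pull-down samples and 1 input. The labels do not say how many fibroblast lines or embryos these came from. Each list pooled the pull-downs of its group, so no value below has a replicate error and nothing was tested between conditions.

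BrITL adds a biotin-labelled nucleotide to free DNA ends in permeabilised cells, pulls the labelled fragments down and sequences them, so a peak is a place where labelled ends gathered. ATR is the kinase that senses single-stranded DNA at stalled replication forks, holds back late origins and keeps forks from breaking. Ends can also arise away from forks, since promoters of active genes are open to nucleases and to topoisomerases, which cut DNA as they act. Shared peaks are sites that were called also without the drugs.

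Most shared peaks lay beside gene starts. The 6 promoters below are those with the highest treated fold among the promoter windows of protein-coding genes that held a treated summit, reached no annotated gene body before the start and had sequence in the RefSeq promoter table (build GRCm38.p6, which is mm10). The 250 bases before the start are printed 5′ to 3′ along the gene, and capitals mark CCAAT or its reverse ATTGG and GGGCGG or its reverse CCGCCC.
Zfp367, chr13:64153200-64153449, minus strand: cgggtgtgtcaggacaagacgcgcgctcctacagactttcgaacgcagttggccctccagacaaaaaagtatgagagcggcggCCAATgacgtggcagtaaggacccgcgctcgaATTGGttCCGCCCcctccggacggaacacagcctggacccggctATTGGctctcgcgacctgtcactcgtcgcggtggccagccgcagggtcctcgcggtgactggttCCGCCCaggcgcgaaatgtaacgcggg
Zswim6, chr13:107890065-107890314, minus strand: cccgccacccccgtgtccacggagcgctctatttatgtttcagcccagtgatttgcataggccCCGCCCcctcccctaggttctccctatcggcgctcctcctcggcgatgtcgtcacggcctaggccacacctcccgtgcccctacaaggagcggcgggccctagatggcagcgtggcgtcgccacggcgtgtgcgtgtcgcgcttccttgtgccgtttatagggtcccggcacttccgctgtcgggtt
Arl6ip6, chr2:53191834-53192083, plus strand: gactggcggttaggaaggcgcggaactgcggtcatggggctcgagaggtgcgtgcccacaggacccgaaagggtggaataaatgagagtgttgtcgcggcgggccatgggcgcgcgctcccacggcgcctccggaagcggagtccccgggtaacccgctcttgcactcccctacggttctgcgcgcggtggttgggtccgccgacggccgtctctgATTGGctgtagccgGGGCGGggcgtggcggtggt
Rita1, chr5:120612590-120612839, minus strand: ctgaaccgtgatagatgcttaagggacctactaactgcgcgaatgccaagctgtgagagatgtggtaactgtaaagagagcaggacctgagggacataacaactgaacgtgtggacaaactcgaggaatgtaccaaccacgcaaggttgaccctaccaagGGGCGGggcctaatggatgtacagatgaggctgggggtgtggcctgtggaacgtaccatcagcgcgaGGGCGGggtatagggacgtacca
Tnrc6b, chr15:80711063-80711312, plus strand: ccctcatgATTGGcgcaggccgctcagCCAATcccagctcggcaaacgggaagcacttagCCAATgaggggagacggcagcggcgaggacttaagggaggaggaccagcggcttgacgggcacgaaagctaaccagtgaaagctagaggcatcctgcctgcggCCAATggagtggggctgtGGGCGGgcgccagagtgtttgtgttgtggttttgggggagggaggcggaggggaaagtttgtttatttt
Cacul1, chr19:60581024-60581273, minus strand: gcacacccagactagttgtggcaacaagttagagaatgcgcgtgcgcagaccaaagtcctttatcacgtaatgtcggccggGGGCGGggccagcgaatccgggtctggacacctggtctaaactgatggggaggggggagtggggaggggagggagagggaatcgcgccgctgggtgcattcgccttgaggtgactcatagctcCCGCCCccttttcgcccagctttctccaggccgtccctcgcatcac
In the Zfp367 promoter, which belongs to a zinc finger gene, CCAAT began 167, 135 and 91 bases before the start, on 1 strand or the other, and the treated summit lay 54 bases before it. Tnrc6b, whose protein acts in microRNA silencing, had 4 such boxes (242, 223, 190 and 87 bases before the start), with the treated summit 235 bases before the start. In Arl6ip6 the box lay 34 bases and the treated summit 222 bases before the start. Zswim6, Rita1 and Cacul1 had none, and their treated summits lay 90 and 119 bases before and 26 bases past the start. Each of the 6 windows held at least 1 GGGCGG box.

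The peak calls differ in depth between the lists. Fragment numbers at each summit were recovered from the authors' fold and −log10 p. The genome mean of the treated pull-down was 5.14 fragments and that of the vehicle pull-down 2.88, the input backgrounds were 2.26 and 2.32, and no peak of either list had fewer than 35 pull-down fragments. The lowest fragment number was 35 in both lists, but the lowest −log10 p was 8.12 in the treated and 21.3 in the vehicle list. The lists thus did not end at 1 level of p. Authors' folds are therefore read only within a list, and fragment numbers of both lists are set side by side without a test.

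The shared peaks formed 3 classes, which were set after the widths had been seen. In the first, 154 treated peaks lay in 143 vehicle peaks of at least 1 kb. In the second, 34 treated peaks met 32 vehicle peaks in a stretch of 2.3 Mb around Myc and Pvt1 (chr15:60000001-62300000), where peaks of both lists are dense. In the third, 12 treated peaks each met 1 vehicle peak of under 1 kb elsewhere. Among the met vehicle peaks outside that stretch no width fell between 855 and 1962 bp.

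In the first class, the treated peak lay inside a much wider vehicle peak. Treated peaks are narrow in the whole list (median width 454 bp, and 449 bp in those not shared), vehicle peaks are wide (2855 bp), and the class was itself cut by vehicle width. Here the treated peaks had a median width of 538.5 bp (101 to 1955) and the vehicle peaks of 4181 bp (1962 to 13799). All 154 treated peaks lay wholly inside their vehicle peak, and the median treated peak covered 11.2% of it. Of the treated summits, 148 of 154 (96.1%) lay between 25% and 75% of the vehicle peak's length, and the median lay at 47.8%. The vehicle summit fell inside the treated peak in 104 of 154 pairs (67.5%, exact interval 59.5 to 74.8%, which covers counting error only, as do all intervals here). The 2 summits were at most 250 bp apart in 90 pairs (58.4%), with a median of 180 bp. Over all 200 shared peaks, 196 lay wholly inside a vehicle peak, and every treated summit lay in one.

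**Figure D1:**
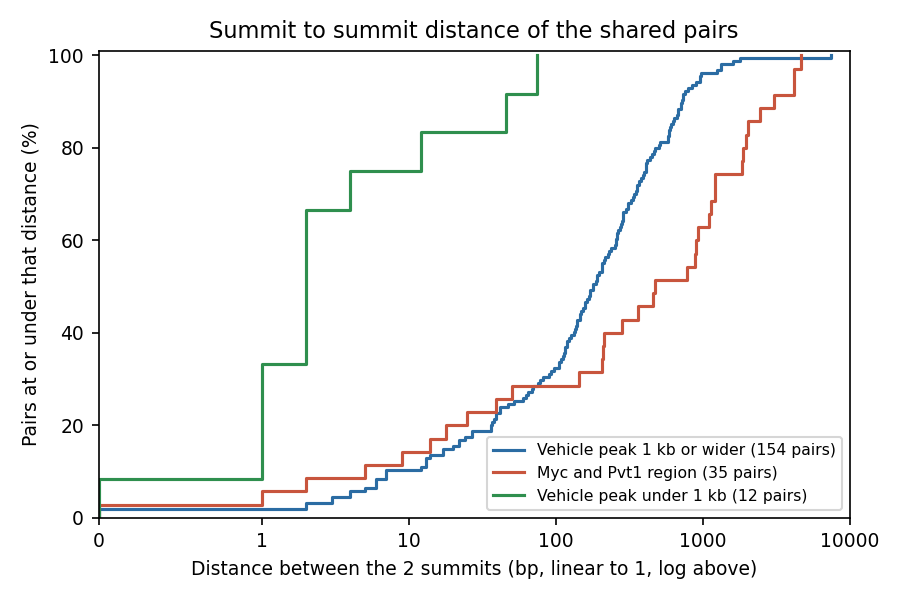
Cumulative share of pairs (percent) against the distance between the treated and the vehicle summit (bp, log axis above 1), 1 line for each of the 3 classes. The 12 pairs with a vehicle peak under 1 kb reach 75% at 10 bp, while the 154 pairs with a wider vehicle peak have a median of 180 bp and the 35 pairs of the Myc and Pvt1 region one of 472 bp.

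The treated peaks of this class had coverage near the floor of their list, as did the list as a whole. The treated summits held a median of 39 fragments (35 to 68), beside 42 over all treated peaks and 43 over those not shared, and 99 of 154 (64.3%) held at most 40. Their vehicle summits held a median of 82 fragments (39 to 138). Vehicle fragments exceeded treated fragments in 153 of 154 pairs, with a median ratio of 2.05, although the treated pull-down had the higher genome mean. The exception was a peak of 117 bp in Clcn4, a gene for a chloride and proton exchanger of endosomes, with 47 treated and 39 vehicle fragments. The input background at these summits was at least 2 times the genome background in 3 of 154 treated and 1 of 143 vehicle peaks.

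**Figure D2:**
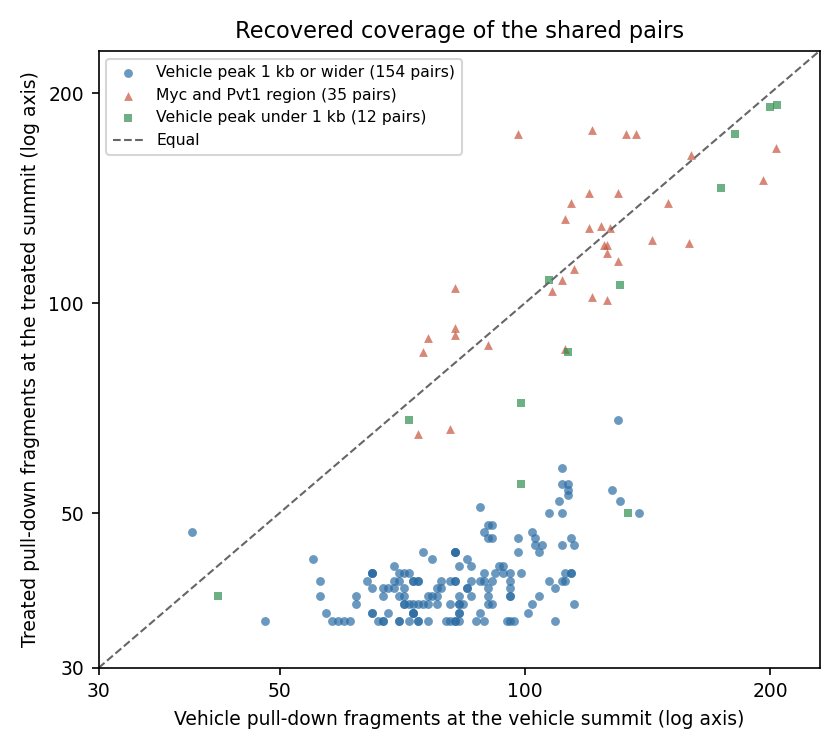
Treated against vehicle pull-down fragments at the summits of the 201 pairs, both on log axes, by class, with a dashed line of equal numbers. Pairs with a wide vehicle peak sit below the line in 153 of 154 cases, and pairs of the Myc and Pvt1 region lie on both sides of it.

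The shared peak with the highest treated fold lay at Camta1, which encodes a calmodulin-binding transcription activator. It spanned chr4:151861570-151862672 (mm10) with its summit 281 bp before the Camta1 start, and held 55 treated fragments (fold 7.07) against 113 vehicle fragments (fold 27.7, rank 7 of the vehicle list). The 2 summits were 5 bp apart. The peak at the non-coding Gt(ROSA)26Sor locus, 240 bp from the start of the SET domain gene Setd5, had 50 treated and 138 vehicle fragments (treated fold 7.05), and its vehicle peak ranked first by fold (33.8). H2az1, which encodes a histone variant found at promoters, had 47 and 89 fragments (treated fold 6.65, summits 390 bp apart). Lpxn and Zfp91, a focal adhesion gene and a zinc finger gene both within 1 kb of the peak, had 46 and 98 (fold 6.51), and Tomm40, which encodes the pore of the outer mitochondrial membrane, had 46 and 91 (fold 6.51). The highest shared treated fold, that of Camta1, ranked 30 of the 491 treated peaks, so the 29 higher peaks met no vehicle peak.

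The next loci by treated fold had varied functions. Clcn4 (6.28), the chromatin regulator Kmt2e (6.24), the phosphatase gene Ppm1b (6.18), Stip1, a co-chaperone gene (6.13), Bhlhe40, a repressor of clock and hypoxia genes (6.04), and the homeobox gene Pknox1 (5.99) came first. They were followed by the histone demethylase gene Kdm3a (5.97), the lectin gene Mlec (5.97), the splicing factor gene Sf1 (5.96), Zyx of focal adhesions (5.89) and Napa of membrane fusion (5.85). A group at the same treated fold of 5.84 and 41 fragments held Neat1, the RNA scaffold of paraspeckles, and the zinc finger genes Zfp367 and Zswim6. It also held the ubiquitin transfer genes Ube2d3 and Spsb2, the latter with its nearest end 2899 bp from the summit. A further site of the group was nearest to the predicted gene Gm32328, 11978 bp away. Slc2a3, a glucose transporter gene whose end lay 8.68 kb away, and Irs2, an insulin signalling gene, followed.

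In the first class, the met vehicle peaks ranked high in the vehicle list by fold, with a median percentile of 97.2. In the Myc and Pvt1 stretch the median percentile was 5.03 and for the narrow vehicle peaks 33.0. This describes the overlap and was not tested. Of the 143 met vehicle peaks of the first class, 127 were in the highest 20% by vehicle fold and 114 in the highest 10%. These cut-offs were taken from the vehicle peaks outside the Myc and Pvt1 stretch. Among vehicle peaks of at least 1 kb outside the Myc and Pvt1 stretch, the share met was 1 of 1397 below a fold of 10. It was 14 of 1358 (1.03%) from 12 to 15, 50 of 141 (35.5%, interval 27.6 to 44.0%) from 20 to 25 and 20 of 26 (76.9%, 56.4 to 91.0%) at 25 or more. Width rose with fold: the median width was 2414 bp below a fold of 10 and 4998.5 bp at 25 or more. Within folds of at least 20, the share met was 2 of 7 for peaks up to 3 kb, 16 of 32 for 3 to 4 kb, 27 of 67 for 4 to 5 kb and 25 of 61 above 5 kb, with intervals that overlap. After the Setd5 and H2ac19 peaks, the met vehicle peaks of highest fold were at Sp1, a transcription factor gene (31.4, with 54 treated and 128 vehicle fragments), Tnrc18 (29.99), Zfp36l2, which encodes an mRNA decay factor (28.2), Ube2d3 (28.0), Camta1, H2-DMa beside Brd2 (27.5) and Bhlhe40, Ubxn6 and Rnf5 (27.3 each).

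**Figure D3:**
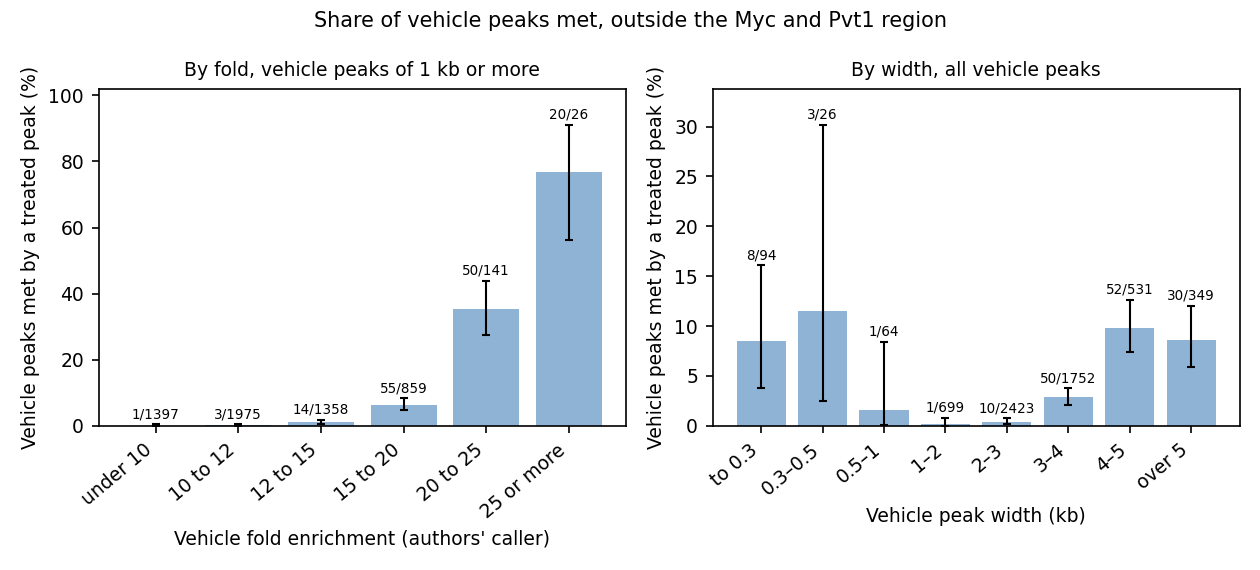
Share of vehicle peaks met by a treated peak (percent, bars, with exact 95% intervals and the counts above them) by the authors' vehicle fold (left, peaks of at least 1 kb) and by vehicle width in kb (right, all widths), outside the Myc and Pvt1 region. By fold the share goes from 1 of 1397 to 20 of 26, and by width it is lowest, 0.143%, at 1 to 2 kb.

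Shared summits kept close to gene starts. Outside the Myc and Pvt1 stretch, 121 of 166 shared treated summits (72.9%) were no farther than 1 kb from a protein-coding gene's start or end, beside 61.8% of the other vehicle summits outside the stretch. With the stretch, it was 122 of 200 (61.0%), beside 26.9% of all treated and 57.2% of all vehicle summits. These shares describe the rule as well as the sites, since overlap with the vehicle list brings its gene ends along. In the first class it was 119 of 154, and where the tables gave the strand, the nearest end was the start in 98 of 101 cases. Starts came from the RefSeq promoter table, which lacked some genes, so the nearest start could be that of another gene. At Bhlhe40, an end of the gene lay 264 bp from a treated summit, but the start used was that of 0610040F04Rik, 569 bp away. The same limit holds for the promoter windows. Of the 123 treated summits within 1 kb of a start, 78 (63.4%, interval 54.3 to 71.9%) lay upstream, with a median 87 bp before it. Met vehicle summits lay upstream in 79 of 111 cases (71.2%, 61.8 to 79.4%, median 147 bp before), and other vehicle summits in 57.4% (55.8 to 59.1%, median 68 bp before). Starts on both strands lay within 1 kb of 29.3% of the shared treated summits (21.4 to 38.1%) and 22.0% of the other vehicle summits (20.6 to 23.4%).

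**Figure D4:**
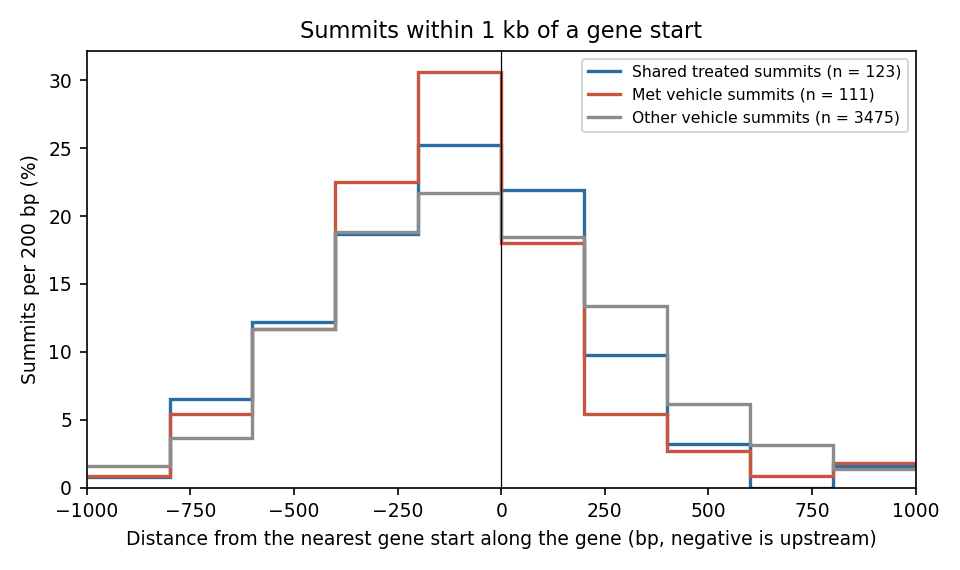
Share of summits (percent per 200 bp) by distance from the nearest gene start along the gene (bp, negative is upstream), for shared treated, met vehicle and other vehicle summits outside the Myc and Pvt1 region. In each set the bin of 200 bp just upstream of the start holds the most summits, 25.2%, 30.6% and 21.7%.

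The promoters at shared peaks were GC-rich like other promoters with vehicle peaks, and a larger share of them had a CCAAT box. Windows of 300 bases (250 before to 50 after the start) were searched on both strands for the exact letters of 7 motifs, none of which contains another. The 119 windows nearest to shared treated summits, of 118 genes, had a median GC content of 65.7% and 25 CpG pairs. Other vehicle promoters had 64.7% and 25, and all 32851 windows of the table had 52.7% and 7. CCAAT, the letters that the factor NF-Y binds, was in 77 of 119 windows (64.7%, interval 55.4 to 73.2%), in 44.2% (42.5 to 45.9%) of the other vehicle promoters and in 37.4% of all windows. Set against other vehicle promoters in the highest 20% of the list by fold, the share was 64.4% (54.2 to 73.6%, 101 windows) at met peaks and 49.5% (45.8 to 53.2%, 729 windows) at those not met. These intervals lay 1 percentage point apart, and no test was made. On the table's strand alone the shares were 40.6% (30.9 to 50.8%) and 29.5% (26.2 to 32.9%), and the intervals overlapped. Of the shared treated summits, 45 lay inside the window of a start, 36 of these at protein-coding genes. In the 250 bases before those 36 starts, 23 had CCAAT, and the nearest box lay a median of 41 bp from the summit. Summits and boxes were taken from the same short window, which itself keeps this distance small. No comparison distance was computed.

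For the other 6 motifs, the interval of the shared promoters held the share of the other vehicle promoters. GGGCGG, the letters that Sp factors bind, was in 82.4% (74.3 to 88.7%) of the shared windows, 77.4% of the other vehicle windows and 35.7% of all windows. TATAAA was in 4.20%, 4.96% and 13.6%, and CCGGAA, the core of ETS sites, in 21.8% (14.8 to 30.4%), 28.3% and 14.9%. CACGTG was in 10.1%, 12.5% and 7.15%, TGACGTCA in 3.36%, 3.59% and 1.79%, and TGANTCA, the letters of AP-1, in 4.20%, 4.70% and 7.81%. A match describes the letters of a window and does not show that a factor was bound.

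Some wide vehicle peaks held several separate treated peaks. In all, 175 of the met vehicle peaks held 1 treated peak, 10 held 2 and 2 held 3. The 9 of these 12 outside the Myc and Pvt1 stretch were at Bhlhe40, Spsb2, Ube2d3, Zswim6, Gpbp1, H2-DMa, Kpnb1, Zfp36l2 and Ddit3. In the Bhlhe40 vehicle peak of 5174 bp, 3 treated peaks with 40, 45 and 50 fragments followed each other at gaps of 298 and 153 bp. In that of Spsb2 (8386 bp), 3 treated peaks with 41, 41 and 39 fragments lay at gaps of 123 and 321 bp. Ube2d3, which encodes a ubiquitin-conjugating enzyme, had 2 peaks of 41 fragments 107 bp apart. At H2-DMa, a gene of antigen loading, the second peak lay 1212 bp on, 192 bp from an end of the bromodomain gene Brd2, and both met the same vehicle peak. The gaps of this class had a median of 153 bp. Whether such neighbours are separate sites was not tested.

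A few pairs of this class had distant summits. At Cirbp, which encodes a cold-inducible RNA-binding protein, the treated peak of 136 bp had its summit 46 bp past a start and 7511 bp from the vehicle summit, in a vehicle peak of 11118 bp. At Neat1 the treated summit lay 1320 bp from the summit of the widest vehicle peak of the class (13799 bp). The widest treated peaks of the class were at Rnf5, a ubiquitin ligase gene (1955 bp), Setd5 (1912 bp) and Rita1 (1895 bp).

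The 12 pairs with a narrow vehicle peak differed in shape and place. Their treated peaks were 98 to 348 bp wide (median 138) and their vehicle peaks 125 to 855 bp (median 209). The 2 summits lay a median of 2 bp apart, and at most 10 bp in 9 of 12. Fragment numbers had medians of 95.5 (treated) and 122 (vehicle). The treated input background was at least 2 times the genome background in 10 of 12 and the vehicle background in 8 of 12 (66.7%, interval 34.9 to 90.1%). Among the 170 other vehicle peaks under 1 kb outside the stretch it was so in 55 (32.4%, 25.4 to 39.9%). Of all 182 such vehicle peaks, 6.59% were met. The part of the input background in these peaks was not tested. Of the 12, 2 lay 1 kb or less from a coding gene's end, H2ac19 and the predicted gene Gm52481 on the Y chromosome.

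Fragment numbers varied widely among the narrow sites. The lowest were at chr8:129207493-129207601, nearest to 2610044O15Rik8, with 38 treated and 42 vehicle fragments on a background of 1.00 and 1.28 times the genome background. The site at chr16:11144020-11144170, inside Zc3h7a and 7504 bp from its nearest end, had 192 treated and 204 vehicle fragments, and its vehicle peak had the lowest p of that list. Its input background was 8.86 times the genome background in the treated and 2.59 times in the vehicle list. The site at chr3:5860618-5860762, which lay 109 kb from the nearest gene, Gm8797, had 191 and 200 fragments on a background of 15.1 and 12.1 times the genome background. That at chr8:15519877-15519999 had 175 and 181, and that at chr10:130594834-130594964, 2001 bp from the ferritin pseudogene Ftl1-ps2, had 146 and 174. At chr2:182012816-182013008 treated fragments were the higher, 108 against 107. The site at chr19:22651080-22651177 lay inside Trpm3 and had 68 and 72.

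H2ac19 stood apart within this class. Its peak lay within 1 kb of H2ac19 and H3c15, replication-dependent histone genes that belong to families of near-identical copies, so that reads may not be placed uniquely. The treated peak spanned chr3:96239581-96239700, and its summit was the same base as the vehicle summit. It held 50 treated and 134 vehicle fragments on an input background equal to the genome background in both lists. In this it was near the peaks of the first class, with medians of 1.02 (treated) and 1 (vehicle) times the genome background. Its vehicle peak, though, was 187 bp wide. Its treated fold of 7.05 equalled that of the Setd5 peak, and its vehicle fold of 32.8 ranked 2 in that list.

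In the Myc and Pvt1 stretch fragment numbers, not scaled for depth, were alike in both lists. The genome mean was 5.14 fragments in the treated and 2.88 in the vehicle pull-down. Of 41 treated peaks there 34 were shared (82.9%, interval 67.9 to 92.8%), against 166 of 450 elsewhere (36.9%, 32.4 to 41.5%). The stretch held 506 vehicle peaks in its 2.3 Mb, of which 32 (6.32%) were met. The share of treated peaks that overlap one thus describes the density of vehicle peaks as well as the sites. The treated summits held a median of 121 fragments (65 to 177) and the vehicle summits of 120.5 (74 to 203). Vehicle fragments were the higher in 18 of 35 pairs and treated fragments in 17. All 34 treated and all 32 vehicle peaks had an input background of at least 2 times the genome background, with medians of 7.67 and 7.78 times. The high input goes with the high fragment numbers here, and its part in the calls was not tested. Treated folds had a median of 2.69, and vehicle folds had a median of 5.14.

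The 5 highest treated folds of the stretch were spread along it. The treated peaks of fold 4.61 and 4.59 were 9.36 and 10.3 kb from the pseudogene Gm6392, with 175 and 177 treated against 133 and 121 vehicle fragments. The widest shared treated peak, 3605 bp inside Lratd2, had a fold of 3.95 and 122 against 159 fragments. The peaks near 4930402D18Rik (3.70) and Gm18788 (3.68) completed the first 5. The Gm18788 peak of 2097 bp, 11.2 kb from Myc, was the only one that met 2 vehicle peaks, sharing 416 bp with one and 1569 bp with the other. At Myc, the growth regulator, the treated summit lay 319 bp from an end of the gene and held 150 treated and 196 vehicle fragments (folds 2.39 and 10.2). Inside Pvt1, a non-coding gene beside Myc, the treated peak of lowest fold in the whole list (2.07) held 167 and 203 fragments, with summits 14 bp apart. Distances between summits in the stretch had a median of 472 bp, up to 4673 bp near Gm38563.

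The rule's limit fell in a gap. The smallest overlaps were 98, 98, 99, 101 and 107 bp, near 4930402D18Rik, inside Trpm3, near Gm42030, at Eef1a1 and near 2610044O15Rik8, and for the first 4 that was the whole treated peak. The nearest treated peaks that missed lay 198 bp (Gm18154), 691 bp (Acacb), 1549 bp (4930402D18Rik), 1749 bp (Nop56) and 1843 bp (Gm38563) from a vehicle peak. Of the 291 treated peaks outside the rule, 2 lay within 1 kb of a vehicle peak and 27 within 10 kb.

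Members were spread unevenly over chromosomes. All 10 treated peaks of chromosome 19 were shared, 19 of 34 on chromosome 17, 40 of 58 on chromosome 15 (6 of them outside the Myc and Pvt1 stretch) and 0 of 44 on the X chromosome. The X chromosome held 41 vehicle peaks, of which none was met. On chromosome 18 there were 4 treated peaks and none was shared.

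Of 367 genes in 12 lists, 17 had a shared treated summit inside or within 1 kb, and they came from 8 lists. Over all 21887 protein-coding genes 0.763% had one, while 23.8% had a vehicle summit. The immediate early and AP-1 list had 5 of 35 (27 with a vehicle summit): Bhlhe40, Fosl2 and Jund, which encode transcription factors, Myc and Zfp36l2. Fosl2 had 35 treated and 109 vehicle fragments and Jund 40 and 81. The list of non-coding host genes had 3 of 23 (14 with a vehicle summit), which were Gt(ROSA)26Sor, Neat1 and Pvt1. The Sp and KLF list had 2 of 16 (14), Sp1 and Zfp91. The replication-dependent histone list had 2 of 63 (49), H2ac19 and H3c15, which shared 1 peak, and the variant histone list 1 of 10 (7), H2az1. Cytoskeleton and matrix genes had 2 of 22 (13), the actin gene Actb with 54 and 113 fragments and the tubulin gene Tuba1b with 37 and 81. Splicing factors had 1 of 24 (22), Hnrnpf with 46 and 90.

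Among replication genes, Mcm7 had a shared peak. The ATR pathway and replication fork list had 1 of 25 (15 with a vehicle summit), Mcm7, which encodes a subunit of the replicative helicase, with 52 treated and 110 vehicle fragments and summits 37 bp apart. Pcna, the gene of the sliding clamp of DNA polymerases, is in none of the lists and was singled out after its values were seen. It had 36 and 73 fragments, with the treated summit 77 bp before its start. Common fragile site genes had 0 of 23 (9), p53 response genes 0 of 23 (10), cell cycle genes 0 of 24 (16) and ribosomal protein genes 0 of 86 (38). Each of the 12 lists had a larger share of genes with a vehicle summit than the 23.8% of all genes, and the members' counts are small, so the lists are described and not ranked.

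**Figure D5:**
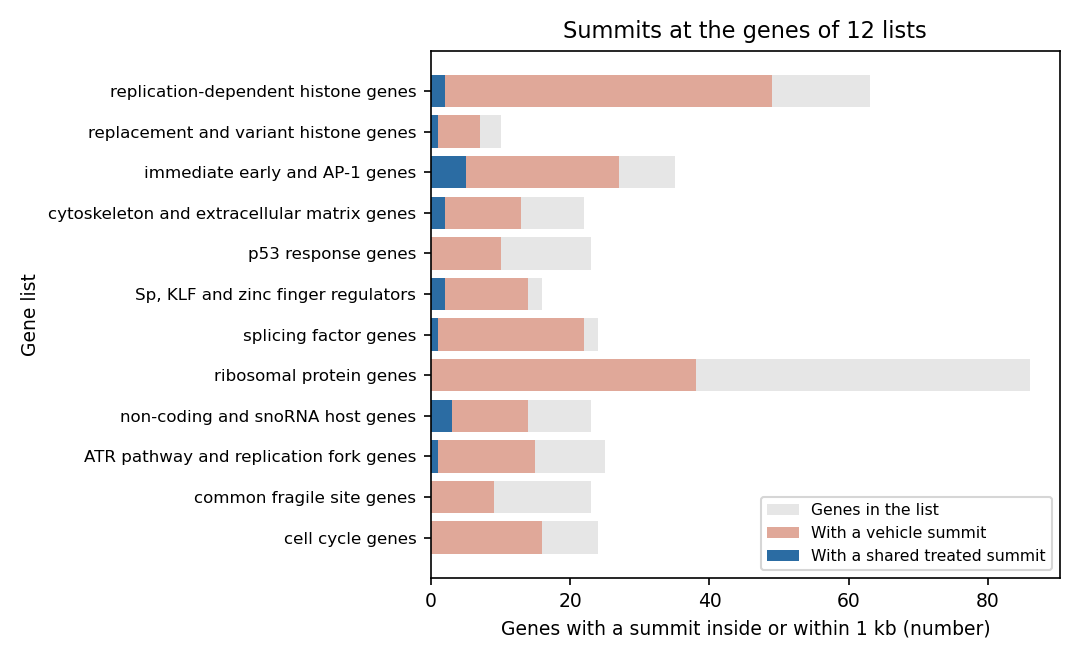
Number of genes in each of 12 lists (grey), of those with a vehicle summit inside or within 1 kb (red) and of those with a shared treated summit (blue). The immediate early and AP-1 list has the most genes with a shared treated summit, 5 of 35, and 4 lists have 0.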

How the data were processed

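DNA ends were mapped by BrITL in 6 samples. The submitters' processing notes list mm10 as the build. For tools they list MACS2 2.1.0, Picard 1.141, SAMtools 0.1.19, STAR 2.5.2a and bcl2fastq 2.17.1.14, with no settings. The deposited data were 2 peak lists. Per the peak names, each condition's pull-downs were pooled and called against its input. The authors' caller gave each peak a fold (a ratio at the summit) and −log10 p and −log10 q values. The deposited score is the whole part of 10 times −log10 p in 100% of rows of both lists. Overlaps and distances were computed here with interval code, and coordinates are 1-based.

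Inverting the caller's formulas (coverage plus 1 divided by background plus 1 for the fold, a Poisson tail for p) gave pull-down fragments and input background. Coverage had to be a whole number of scaling steps, to within 0.02, and this was met by 100% of peaks. The code was tested on simulated data. Genes and promoters came from RefSeq tables of GRCm38.p6. Promoters of chromosome 18 were not analysed here.

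Shares carry exact Clopper-Pearson intervals at 95%. No significance test was made, since there is 1 pooled list per condition and the rule used both. Members, gene lists and the bounds of the Myc and Pvt1 stretch were chosen with earlier results of these data known. Named loci were those highest by treated fold (25) and by vehicle fold (10), the first 5 of the stretch, vehicle peaks met more than once (10), extremes of overlap, width and summit distance (5 each), and list genes with a shared summit. Software was pandas 2.3.3, SciPy 1.17.1, NumPy 2.4.6 and matplotlib 3.10.9 under Python 3.11.15.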

Additional observations from a re-analysis of the deposited data

How the results depend on the processing

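No peak of either list had fewer than 35 fragments, so sites below that could not be counted as shared. No replicate could be left out and no paired analysis was possible because each list pools its samples. Requiring 50% of the treated peak, or its summit, inside a vehicle peak left the 200 treated peaks as they were, and a gap of up to 1 kb gave 202. Reciprocal 50% overlap left 12 treated and 12 vehicle peaks. Requiring the vehicle summit inside the treated peak left 132. At −log10 q of at least 5 there were 76 shared treated peaks of 235 (32.3%) and 75 met vehicle peaks, and at 10 there were 8 of 34. The median percentile of shared treated peaks by treated fold was 36.3, and 48.9 without the Myc and Pvt1 stretch or 70.7 at −log10 q of at least 5. That of met vehicle peaks by vehicle fold was 94.5, then 96.8 and 97.5. The share of shared treated summits near a coding gene end was 61.0% within 1 kb, 53% within 500 bp, 71.5% within 5 kb and 72.9% without the stretch. With the table's strand alone, CCAAT was in 39.5% of windows, since fewer letters are searched. Counting only summits inside a gene left 9 list genes. Splitting the classes at 500 bp or 2 kb, chosen after seeing the data, gave 11 or 13 narrow peaks in place of 12.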
